A study of Saccharomyces cerevisiae with 7 samples.

Results

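Between 1 h and 2 h of a meiotic time course, budding yeast cells lacking Clb5 and Clb6 had more mRNA of genes for meiotic recombination, chromosome synapsis, DNA replication and histones, and less mRNA of genes for amino acid synthesis, the phosphate response, nitrogen use, glycolysis and cytosolic ribosomes. The count for cytosolic ribosomes depended on the scaling: after quantile normalization 1.59% were at least 2-fold lower, against 4.95% of all genes. For glycolysis it was then 9.52%. The step was read for each open reading frame (ORF, the unit of the table) as its log2 value at 2 h minus its log2 value at 1 h. Of 6141 ORFs in the table, 5658 had a value in both libraries and make up the step. Another 111 had a value at 2 h and none at 1 h, 48 had a value at 1 h and none at 2 h, and 324 had neither.

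The series followed a culture of the Clb5Delta-Clb6Delta double mutant of Saccharomyces cerevisiae, which lacks a pair of B-type cyclins that activate the kinase Cdc28 for S phase. It holds 7 libraries, 1 each at 1, 2, 3, 4, 5, 6 and 8 h. Polyadenylated RNA of each time point was labelled with Cy5 and hybridised beside a Cy3-labelled mix of mRNA from the time points, and the deposited value is the log2 of that ratio divided by the same ratio at 0 h. The 0 h sample is the same mutant, both libraries of the step carry both deletions, and the labels give neither the strain background nor the medium. In the difference between 2 h and 1 h the 0 h ratio cancels. A difference of 1 is a 2-fold higher mRNA level at 2 h, relative to total mRNA; fewer cells with a transcript and less of it per cell cannot be told apart. No time point was replicated, so no difference has an error or a p-value, and "higher" and "lower" describe these libraries alone. A gene counted as higher or lower here differed by at least 2-fold. The last library has a title of 8 h and a source name of 6 h and is called the library titled 8 h.

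Yeast enters meiosis when starved of nitrogen and fermentable sugar. The transcription factor Ime1 and the kinase Ime2 start an early programme that covers DNA replication before meiosis and the proteins that break, pair and recombine homologous chromosomes. A later programme under the transcription factor Ndt80 carries cells through the divisions and spore formation. Starvation also sets off other adjustments: permeases and catabolic genes are released from nitrogen repression, the activator Gcn4 drives amino acid synthesis, and genes for ribosomes are turned down.

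Most of the transcriptome moved little in this hour. The median difference was -0.06 with an SD over ORFs of 0.55, and 5298 ORFs, or 93.6%, differed by less than 2-fold. At least 2-fold higher at 2 h were 201 ORFs (3.55% of those with both values), and 159 (2.81%) were at least 2-fold lower. The differences ran from -2.41 for PHO5, the secreted acid phosphatase, to 3.10 for SLI1, an N-acetyltransferase. At least 4-fold apart were 26 higher and 7 lower ORFs. Among the steps between neighbouring libraries, the next one, from 2 h to 3 h, had 51 higher and 63 lower ORFs, and the step from 4 h to 5 h had 271 and 76. Neighbouring steps share a library, so these counts are not independent.

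**Figure D1:**
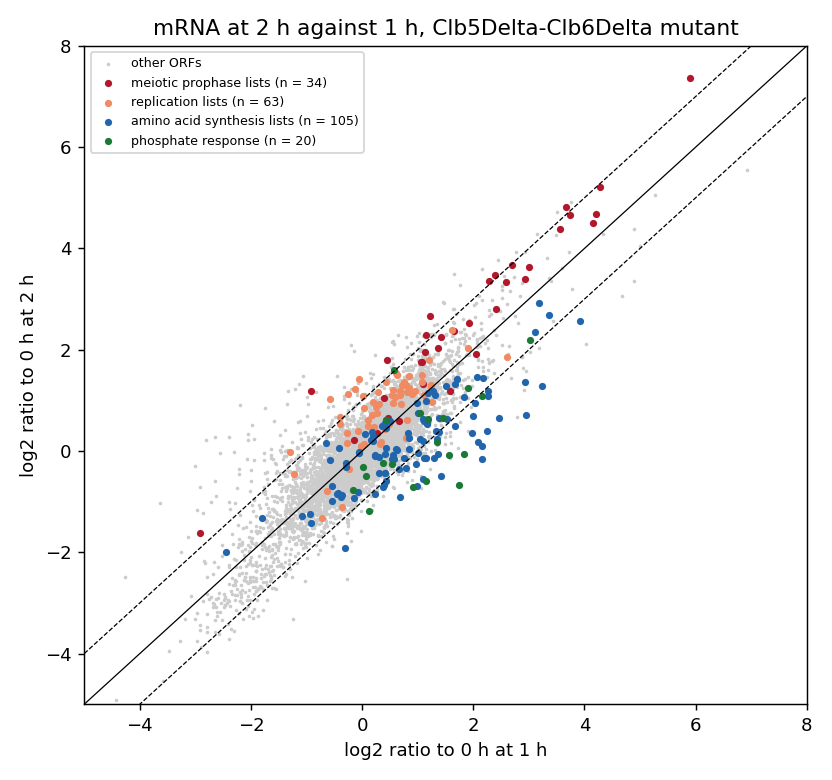
Log2 ratio to 0 h at 2 h (vertical) against 1 h (horizontal), 1 point per ORF; the solid line marks equal values, the dashed lines a 2-fold difference. Meiotic prophase genes (red) and replication genes (orange) lie mostly above the solid line, and amino acid synthesis (blue) and phosphate genes (green) mostly below it.

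The 1 h library stood apart from the other 6 libraries for part of these ORFs. In 77 of the 201 higher ORFs the 1 h value lay at least 1 log2 unit below the lowest of the other libraries, and in 77 of the 159 lower ORFs it lay at least 1 above the highest of them. The same rule applied to the 2 h library took 6 ORFs below and 1 above. Applied to the library titled 8 h, at the other end of the course, it took 199 below and 204 above. Every ORF that stood apart at 1 h passed 2-fold at this step by construction, so leaving these out can only lower the counts. Without the ORFs that stood apart at 1 h, 124 of 5504 (2.25%) were higher and 82 (1.49%) lower. The rule also takes genes that kept going the same way after 2 h, such as HTA1 and HIS4, described below; 43 of the 77 low ORFs and 21 of the 77 high ORFs had their other libraries within 1 unit of each other. By chromosome arm the share of higher ORFs was between 0% and 8.51%; the right arm of chromosome XII had the most of them, 35 of 421 (8.31%), and 16 of these stood apart at 1 h. The part of the 1 h array in these differences was not tested.

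Genes of meiotic prophase were mostly higher at 2 h. Of 34 measured members of 5 lists, 31 had a difference above 0, where 45.1% of all ORFs did. At least 2-fold higher were 9 of 34 (26.5%, against 3.55% of all ORFs), and none was lower. Their median was 1.62 before and 2.33 after the hour, and by 4 h it had reached 3.02. Leaving out the 3 members whose 1 h value stood apart left 6 of 31 higher (19.4%, against 2.25% of all ORFs left).

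The crossover proteins, which turn recombination intermediates into exchanges between homologues, had a median difference of 1.14 over 7 genes. Of these, 4 were at least 2-fold higher (57.1%, against 3.55% of all ORFs). Without CST9 and MSH5, whose 1 h value stood apart, the median was 0.82. Of the 5 left, 2 were higher (40.0%, against 2.25% of all ORFs left). MSH4, a MutS homologue that stabilises these intermediates, stood at 5.90 at 1 h, 7.37 at 2 h and 7.82, 8.02, 7.19 and 6.85 from 3 to 6 h, with no value in the last library. Its partner MSH5 stood at 1.15 and 2.29, then at 3.14 and 3.39 at 3 h and 4 h. CST9 (Zip3), a ligase of the SUMO modifier at crossover sites, had the largest difference of the meiotic lists, 2.11, from -0.93 to 1.18, and kept between 1.03 and 1.70 from 3 to 6 h. SPO16, which binds at the same sites, went from 0.44 to 1.80 and stood at 1.82 and 1.92 at 3 h and 4 h.

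Axis and synaptonemal complex genes encode the protein core along each chromosome and the bridge between homologues. Of 7 members 3 were higher (42.9%, against 3.55% of all ORFs). HOP1, the axis protein that recruits the checkpoint kinase, stood at 3.68 at 1 h and 4.81 at 2 h, then at 5.14, 5.42, 4.30 and 3.69 from 3 to 6 h and 2.35 in the library titled 8 h. RED1, its axis partner, went from 2.38 to 3.47, and was at 4.04 at 4 h. Both were therefore already at least 4-fold above 0 h at 1 h. ECM11, a component of the central element of the synaptonemal complex, had a difference of 1.31 but lay below 0 h in all 7 libraries, at -2.93 at 1 h and -1.61 at 2 h. ZIP1, which bridges the homologues, differed by 0.76, from 2.58 to 3.35.

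Among break-forming genes REC102, a subunit of the complex around Spo11, was higher by 1.08, from 2.28 to 3.36. SPO11 itself, the enzyme that cuts the DNA, stood at 1.66 and 2.36, a difference of 0.71. None of the 6 strand-exchange genes passed 2-fold; DMC1, the meiotic recombinase, stood at 3.74 and 4.66 and MEI5, its accessory factor, differed by 0.93. CSM4, which helps to move telomeres along the nuclear envelope, went from 1.22 to 2.66. The meiotic cohesin REC8 stood at 3.76 at 1 h and 4.91 at 2 h, and reached 5.56 at 4 h before 2.64 in the library titled 8 h. Its partner in the ring, SMC3, was higher by 1.13, from 0.52 to 1.65, and stood at -0.20 in the last library. MCD1, the mitotic counterpart of REC8, had a difference of -0.88, the lowest of the 13 cohesin and separase genes.

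The regulators of entry had a smaller median difference than the meiotic prophase genes. None of 21 passed 2-fold in either direction, and their median difference was 0.12. IME1 stood at 0.76 at 1 h and 1.29 at 2 h, and IME2 at 3.48 and 4.27, a difference of 0.78. NDT80, the activator of the later programme, was still at -0.16 at 2 h after -0.56 at 1 h, and only later stood at 1.28 at 3 h and 3.47 at 4 h. Middle sporulation genes had a median difference of -0.25, with 1 of 36 higher (2.78%, against 3.55% of all ORFs). That gene was CRR1, a spore wall glycosidase-like protein, at 1.29 and 2.49, and its 1 h value stood apart. None of the 10 late spore wall genes passed 2-fold.

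The deleted genes were read as well, although a ratio to the same strain carries no level and the part of each gene that its probe reads is not given. CLB5 stood at 1.40 at 1 h and 0.30 at 2 h, a difference of -1.10, then at -0.08, -0.51, 0.78, 0.74 and 1.20 in the later libraries. CLB6 stood at -0.19 and -0.53. CDC28, the kinase that both cyclins activate, was higher by 1.05, from 0.20 to 1.25, and was at 2.65 at 5 h. The 1 h value of CDC28 stood apart.

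**Figure D2:**
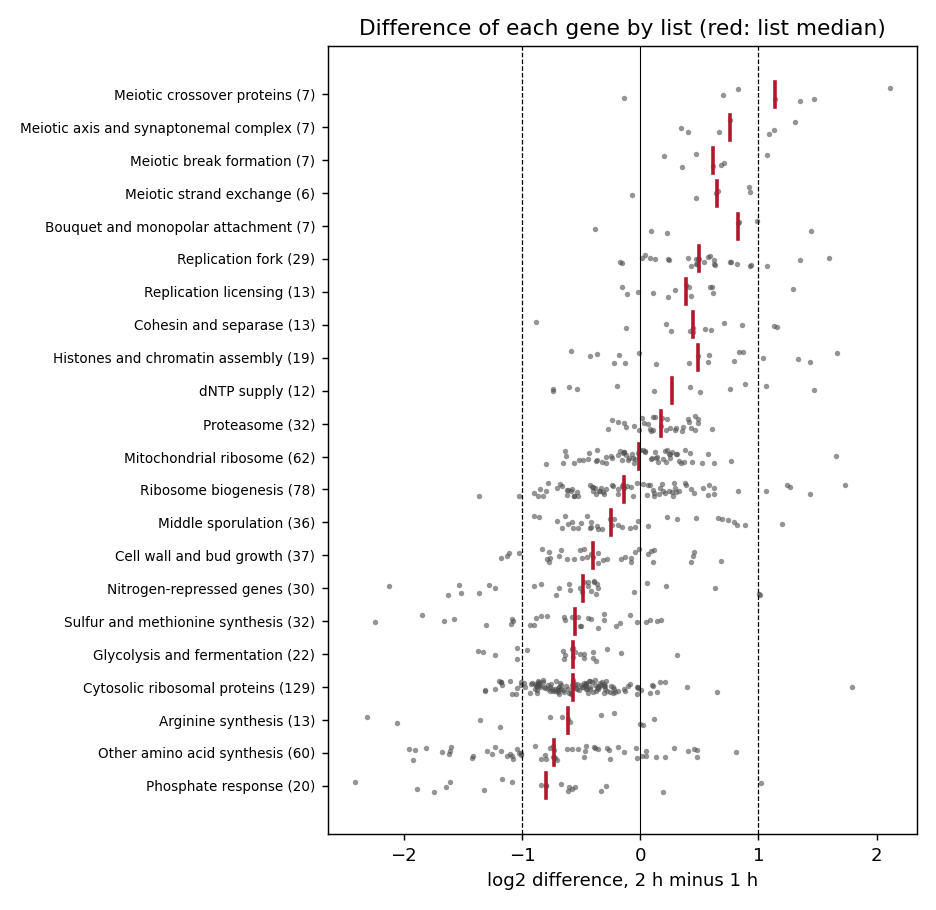
Difference between 2 h and 1 h (log2) of every measured gene in 22 of the lists, 1 point per gene, with the red bar at the list's median, the number of genes in brackets and dashed lines at a 2-fold difference. Crossover proteins have the highest median drawn, 1.14 (0.82 without CST9 and MSH5), and phosphate genes the lowest, -0.80.

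Replication genes were higher at 2 h by a smaller amount that most of them shared. Over 63 genes the median difference was 0.47, 52 had a difference above 0, 7 were at least 2-fold higher (11.1%, against 3.55% of all ORFs) and none was at least 2-fold lower. None of the 63 had a 1 h value that stood apart, but the rule cannot take genes that came back to their 1 h value later. RNR1, CDC8, RFA3 and TOF1, described below, were lower in the library titled 8 h than at 1 h. Their median was 0.42 at 1 h, 0.97 at 2 h and 1.22 at 4 h.

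RNR1, the large subunit of ribonucleotide reductase, which makes the DNA precursors, stood at -0.05 at 1 h and 1.42 at 2 h, then at 1.95, 1.71, 1.04 and 0.54 from 3 to 6 h and -0.53 in the library titled 8 h. Its small-subunit genes went the other way, RNR2 from -0.37 to -1.11 and RNR4 from -0.72 to -1.32, short of 2-fold. CDC8, the thymidylate kinase, was higher by 1.06, from -0.39 to 0.67. At the replication fork RFC5, a subunit of the clamp loader, had the largest difference of the replication genes, 1.60, from -0.58 to 1.02. RFA3, the smallest subunit of the single-strand binding protein RPA, went from -0.13 to 1.22, and TOF1, which steadies stalled forks, from 0.02 to 1.09. All of these were near the 0 h level at 1 h, and each of the fork genes had returned below it in the library titled 8 h.

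Of 9 origin-firing genes PSF1, a subunit of the GINS part of the replicative helicase, was higher by 1.38, from -0.26 to 1.13. POL1, the catalytic subunit of the polymerase that primes synthesis, had a difference of 0.59, from 0.72 to 1.31. The 6 subunits of the MCM helicase all had differences above 0, between 0.23 and 0.62, and their median went from 0.85 to 1.19. ORC2, a subunit of the origin recognition complex, differed by 1.29 in another way: it was at -1.31 at 1 h, at -0.01 at 2 h and between -0.67 and -0.12 afterwards.

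Histone genes, whose products package newly made DNA, shared the step and went on past it. All 8 core histone genes had a difference above 0, where 45.1% of all ORFs did, and 4 were at least 2-fold higher (50.0%, against 3.55%). HTA1, which encodes histone H2A, stood at 0.24 at 1 h and 1.91 at 2 h, then at 2.42, 3.10, 4.04 and 4.00 from 3 to 6 h and 1.97 in the library titled 8 h. HTB2 went from 1.48 to 2.91, HTA2 from -0.32 to 1.02, and HHF2, an H4 gene, from 0.87 to 1.91. The median of the 8 was 0.88 at 1 h, 1.89 at 2 h and 3.22 at 4 h. HTA1, HTA2 and HHF2 had a 1 h value at least 1 below each later one. With these left out, 1 of 5 core histone genes remained higher (20.0%, against 2.25% of all ORFs left). The gene copies of each histone are nearly identical in sequence, so a probe may read both copies.

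**Figure D3:**
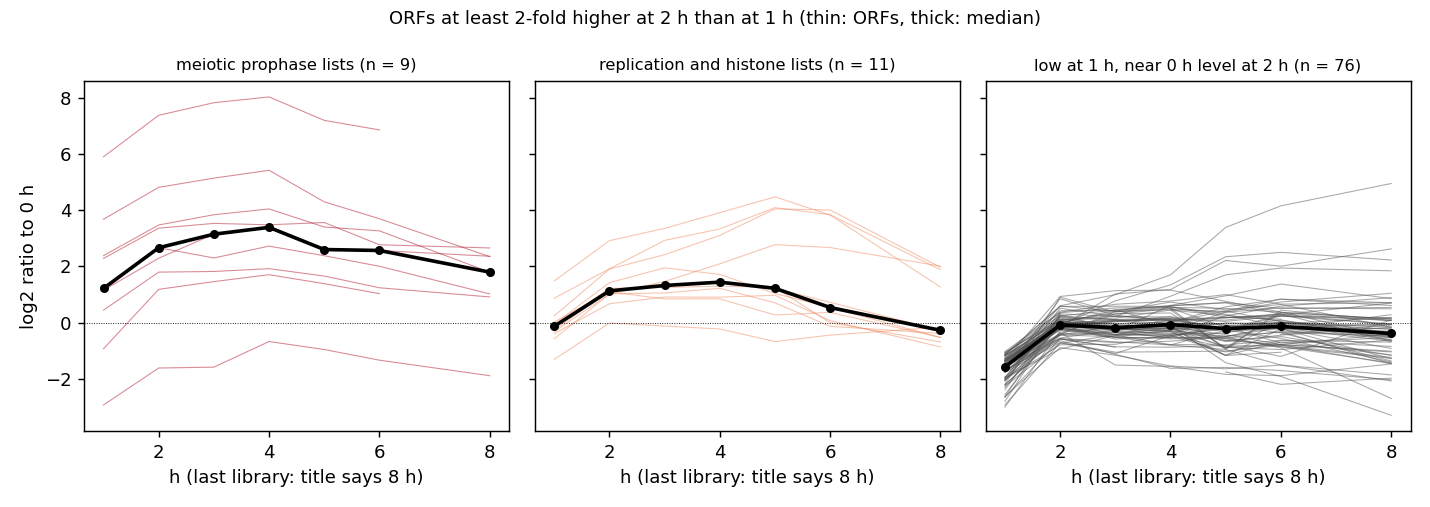
Log2 ratio to 0 h over the course for ORFs at least 2-fold higher at 2 h than at 1 h, thin lines for ORFs and the thick line for their median: 9 meiotic prophase genes, 11 replication and histone genes, and 76 ORFs that were at least 2-fold below 0 h at 1 h and near it at 2 h. The first panels keep their height to 4 h or later at the median, and the median of the third goes from -1.57 to -0.09 and stays near 0 until 6 h.

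The gene groups above account for a small share of the higher ORFs. In any of the 53 lists were 49 of the 201, or 3.62% of the 1354 list members with both values, a share near the 3.55% of all ORFs. Sorted by their place against 0 h, 48 of the 201 were near the 0 h level (within 2-fold) at 1 h and at least 2-fold above it at 2 h. Of these 21 were in a list, against 76 of 256 among all ORFs on that course. The median of the 48 went from 0.11 to 1.43 and held at 1.59 at 4 h. A further 30 were already high at 1 h, with a median of 1.65, and stood at 2.86 at 2 h and 3.53 at 5 h.

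The commonest course was another one. In 76 of the 201 (37.8%) the 1 h value was at least 2-fold below 0 h and the 2 h value was near 0 h. Of these 8 were in a list, against 41 of 199 among all ORFs on that course. The median of the 76 was -1.57 at 1 h and -0.09 at 2 h, and from 3 to 6 h it lay between -0.21 and -0.07. Of the 15 largest positive differences, 13 were in ORFs whose 1 h value stood apart, and 1 was in a gene of a list. Of the 15 largest negative ones 13 stood apart as well, and 11 were in a list. Standing apart asks for at least 1 unit between 1 h and 2 h, so large differences meet it more readily. SLI1, which acetylates the drug myriocin, stood at -2.19 at 1 h and 0.91 at 2 h, then at 0.38, 0.51, -0.95 and 0.45 from 3 to 6 h. MED11, a subunit of the Mediator complex of transcription, stood at -2.64 and 0.28, had no value at 3 h and then lay between -0.35 and 0.44. LOT6, a quinone reductase, stood at -2.39 and 0.28 and then between -0.23 and -0.02. MSW1, the mitochondrial tryptophanyl-tRNA synthetase, stood at -3.64 and -1.02. In MED11 and LOT6 the 1 h library is thus the low one, and the others lie close to 0 h.

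PSY3 and VPS38, whose 1 h value also stood apart, differ from MED11 and LOT6 in lying above 0 h in every library from 2 h on. PSY3, a subunit of the Shu complex, went from -1.07 to 1.48 and stood between 1.50 and 2.07 in the 5 later libraries. VPS38, part of a lipid kinase complex of vacuolar sorting, went from -1.21 to 1.23. It stood between 1.07 and 1.39 from 3 to 6 h and at 0.38 in the library titled 8 h.

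AGA2, the binding subunit of the a-agglutinin with which mating cells adhere, had the largest positive difference of any listed gene. It stood at -0.21 at 1 h and 2.10 at 2 h, then at 3.11, 2.94, 2.67 and 2.22 from 3 to 6 h. SAG1, the partner agglutinin of alpha cells, went from -0.09 to 1.11. No other gene of the 24 pheromone and haploid-specific genes passed 2-fold, so 8.33% were higher, against 3.55% of all ORFs. Their median difference was 0.02. TUB1, the main alpha-tubulin gene, went from 0.98 to 2.27 and on to 3.61 at 5 h, and DUO1, of the ring that ties kinetochores to microtubules, from 0.17 to 1.44. SAE2, which trims the ends of meiotic breaks, went from 0.80 to 2.05. TUB1 and SAE2 had a 1 h value that stood apart.

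Amino acid synthesis held the largest number of lower genes. Of 105 measured genes 34 were at least 2-fold lower at 2 h (32.4%, against 2.81% of all ORFs), none was at least 2-fold higher, and 17 had a difference above 0. The median was 0.82 before and 0.09 after the hour, and by 4 h it had reached -0.35. Of the 34, 24 had been at least 2-fold above 0 h at 1 h, and 18 were below 0 h at 2 h. The 1 h value stood apart from all later ones in 28 of the 105. Without these, 6 of 77 were lower (7.79%, against 1.49% of all ORFs left). The median difference was then -0.44 in place of -0.64.

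In arginine synthesis, 4 of 13 genes were lower (30.8%, against 2.81% of all ORFs). ARG8, the aminotransferase of the ornithine branch, stood at 2.15 at 1 h and -0.16 at 2 h, then at -1.13, -1.49, -1.58 and -1.38 from 3 to 6 h and -0.27 in the library titled 8 h. ARG56, which encodes the preceding pair of enzymes of that branch, went from 2.15 to 0.09 and reached -2.65 at 5 h. ARG4, the last enzyme of the pathway, and ARG1, the enzyme before it, were lower by a smaller amount and were still above 0 h at 2 h, at 2.57 and 1.08.

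Sulfur and methionine genes had 8 of 32 members lower (25.0%, against 2.81% of all ORFs). MET17, which fixes sulfide into homocysteine, stood at 2.94 at 1 h and 0.70 at 2 h, then at -0.89, -1.63, -1.36 and -1.56 from 3 to 6 h. STR3, which makes homocysteine from cystathionine, went from 2.24 to 0.40. SUL1, the sulfate permease, went from 2.94 to 1.36, and MET1, which makes the sirohaem of sulfite reductase, from 1.10 to -0.56. MET1 differs from the others in its later course, which came back to 0.91 in the library titled 8 h.

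The remaining amino acid pathways had 22 of 60 genes lower (36.7%, against 2.81% of all ORFs). In histidine synthesis it was 4 of 7 (57.1%). HIS4, a multifunctional enzyme, stood at 1.43 at 1 h and -0.50 at 2 h, then at -1.97, -3.20, -3.56, -3.47 and -3.07. In branched-chain synthesis it was 6 of 11 (54.5%), and all 11 had a difference below 0. ILV3, the dihydroxyacid dehydratase, went from 0.99 to -0.69, and BAT1, the mitochondrial aminotransferase, from 1.98 to 0.36. LYS1, the last enzyme of lysine synthesis, stood at 3.24 and 1.28, ARO8, an aromatic aminotransferase, at 2.09 and 0.18, and ASN1, an asparagine synthetase, at 2.46 and 0.65. ILV3, HIS4 and ARO8 all went on to values at least 4-fold below 0 h, whereas LYS1 settled near 0 h. GCN4, the activator of these pathways, had a difference of 0.28 in mRNA, from 0.06 to 0.34; its activity is known to be set mainly by translation.

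Genes released from nitrogen repression were lower but mostly not low. Of 30, 7 were at least 2-fold lower (23.3%, against 2.81% of all ORFs) and 2 higher. All 7 had been at least 2-fold above 0 h at 1 h. MEP2, the high-affinity ammonium permease, stood at 6.92 at 1 h and 5.56 at 2 h, then at 4.68, 3.11, 2.22 and 1.60 from 3 to 6 h and 2.12 in the library titled 8 h. GAP1, the general amino acid permease, stood at 4.89 and 3.36 and reached 0.40 at 6 h. DAL3, of allantoin breakdown, stood at 4.68 and 3.06. GAT1, a GATA activator of these genes, had the largest difference of the list, from 2.80 to 0.67, whereas GLN3, the other GATA activator, was higher by 1.01, from -0.31 to 0.70. DUR3, a urea permease, was also higher, from -0.12 to 0.89. Leaving out the 6 genes whose 1 h value stood apart left 1 of 24 lower (4.17%, against 1.49% of all ORFs left). The median difference was then -0.43 in place of -0.48.

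Phosphate genes came from above 0 h down to it in this hour. Of 20, 8 were at least 2-fold lower (40.0%, against 2.81%), and the median was 1.10 at 1 h and -0.06 at 2 h. PHO5 stood at 1.75 at 1 h and -0.66 at 2 h, then at -0.94, -0.62, -1.23 and -1.42 from 3 to 6 h and -0.26 in the library titled 8 h. PHO11 and PHO12, further acid phosphatases, were lower by 1.74 and 1.61 on the log2 scale; they are nearly identical copies and a probe may read both. VTC3 and VTC2, subunits of the polymerase that stores phosphate in the vacuole, went from 1.83 to -0.06 and from 1.57 to -0.07. VTC4, its catalytic subunit, went from 1.35 to 0.19. PHO84 and PHO89, the phosphate transporters, were lower by less than 2-fold and stayed above 0 h at 2 h, at 1.24 and 2.19. PHM7 was the list's 1 higher gene, at 0.57 and 1.60. Without the 6 genes whose 1 h value stood apart, 2 of 14 were lower (14.3%, against 1.49% of all ORFs left).

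**Figure D4:**
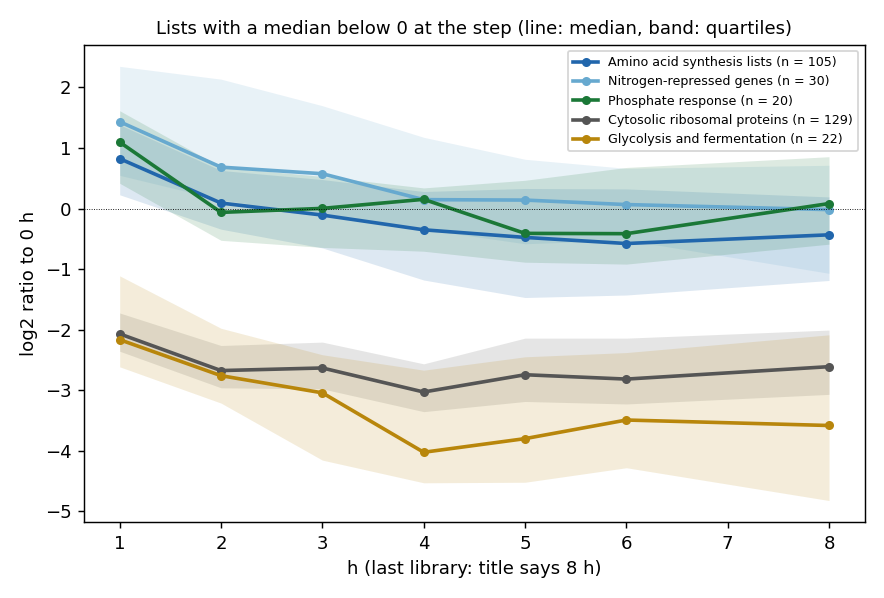
Median log2 ratio to 0 h (line) and quartiles over genes (band) of 5 gene groups over the 7 libraries. The amino acid, nitrogen and phosphate groups start above 0 h at 1 h and come down. The amino acid median lies below 0 h from 3 h on, and the phosphate median at -0.41 at 5 h and -0.42 at 6 h. Ribosomal protein and glycolysis genes start near -2 and go lower.

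The medians of the ribosomal protein and the glycolytic genes were at least 4-fold below 0 h at 1 h, and lower still at 2 h. Of 129 cytosolic ribosomal protein genes 119 had a difference of 0 or less and 13 were at least 2-fold lower (10.1%, against 2.81%). The median went from -2.07 to -2.68. After quantile normalization 2 of 126 were lower (1.59%, against 4.95% of all ORFs) and the median difference was -0.24 in place of -0.57. RPL8A stood at -1.97 and -3.29 and then between -3.31 and -2.45. The large and small subunits had 7 of 75 (9.33%) and 6 of 54 (11.1%) lower. The 1 gene higher was RPL26A, by 1.79, from -4.27 at 1 h to -2.48; its near-identical copy RPL26B went from -2.49 to -2.94. Many ribosomal protein genes come as such pairs, and a probe may read both.

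Glycolysis and fermentation had 5 of 22 genes lower (22.7%, against 2.81% of all ORFs), and 1 had a difference above 0. It was 2 of 19 without the genes whose 1 h value stood apart (10.5%, against 1.49% of all ORFs left). With libraries centred it was 3 of 22 (13.6%, against 2.35% of all ORFs), and after quantile normalization 2 of 21 (9.52%, against 4.95%). PGI1, which isomerises glucose 6-phosphate, stood at -1.88 at 1 h and -3.25 at 2 h, then at -4.03, -4.63, -4.72 and -4.51 from 3 to 6 h. TPI1, the triosephosphate isomerase, went from -1.71 to -2.93, and ADH5, an alcohol dehydrogenase, from -0.55 to -1.87. In the glyoxylate cycle and gluconeogenesis 5 of 19 were lower (26.3%, against 2.81%). Without the 3 whose 1 h value stood apart it was 2 of 16 (12.5%, against 1.49% of all ORFs left). The median difference was then -0.28 in place of -0.52. FBP1, the fructose bisphosphatase, went from -2.31 to -3.55, and PCK1, which makes phosphoenolpyruvate, from -1.55 to -2.73. MDH2, the cytosolic malate dehydrogenase, went from 1.24 at 1 h to the level of 0 h. TKL1, the transketolase of the pentose phosphate pathway, went from -1.03 to -2.57.

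Of 37 cell wall and bud growth genes 4 were lower (10.8%, against 2.81% of all ORFs), among them BGL2, a wall glucanosyltransferase, from -0.25 to -1.43, and none had a 1 h value that stood apart. Other lower genes had courses of their own. HAC1, the activator of the unfolded protein response, went from 1.22 to -0.35 and came back to 1.30 in the library titled 8 h. HXT14, a member of the hexose transporter family, stood at 2.92 at 1 h, 1.21 at 2 h and 1.78 at 3 h, and then at 3.64, 6.58, 7.85 and 8.48, so its value at 2 h is the lowest of the 7 libraries. In PXR1, a protein of ribosomal RNA processing, and BFR2, of the same process, the 2 h library is the low one: PXR1 stood at -1.25, -3.32 and -0.59 from 1 to 3 h, and BFR2 at -1.78, -3.14 and -1.82.

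Several large groups had few or no members past 2-fold at this step, where 3.55% of all ORFs were higher and 2.81% lower. Mitochondrial ribosomal protein genes had a median difference of -0.01 and 1 of 62 higher (1.61%). The proteasome had 0.18 with none of 32 past 2-fold, and respiratory chain genes -0.14 with 1 of 34 lower (2.94%). Some still shared a direction: 25 of 32 proteasome genes had a difference above 0 (78.1%, against 45.1% of all ORFs). For respiratory chain genes it was 10 of 34 (29.4%), and for RNA polymerases I and III 9 of 31 (29.0%). Trehalose and glycogen (17 genes), oxidative stress (29), fatty acid oxidation (21), RNA polymerases I and III (31), septins (21) and the DNA checkpoint (10) also had no member past 2-fold. Ribosome biogenesis genes had 5 of 78 higher (6.41%, against 3.55% of all ORFs) and 2 lower (2.56%, against 2.81%). Their median difference was -0.14. The 5 were low at 1 h, between -3.25 for NMD3, an export adapter of the large subunit, and -1.48 for LCP5, and the list's median hardly moved, from -1.11 to -1.15. Without LCP5 and ROK1, whose 1 h value stood apart, 3 of 76 were higher (3.95%, against 2.25% of all ORFs left).

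**Figure D5:**
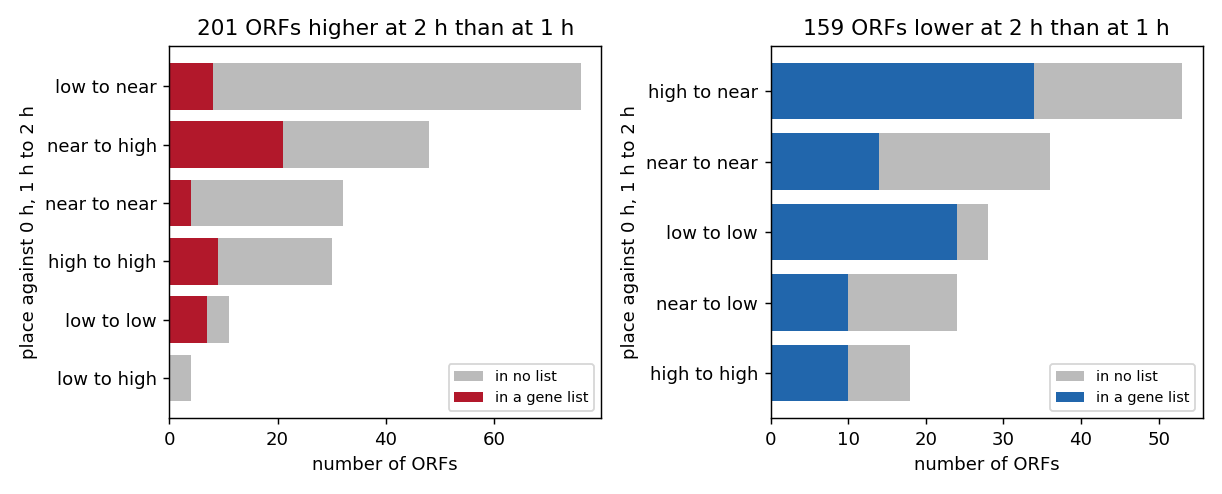
Number of ORFs by place against 0 h at 1 h and 2 h (low and high, at least 2-fold from 0 h; near, within 2-fold), for the 201 higher and the 159 lower ORFs, with list members in colour. Of the 76 higher ORFs going from low to near 8 are in a list, and of the 53 lower ORFs going from high to near 34 are. Among all ORFs with both values on these courses, called or not, 41 of 199 and 80 of 211 are in a list.

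Of the lower ORFs 92 of 159 were in a list, or 6.79% of list members against 2.81% of all ORFs. The commonest course was from high at 1 h to near 0 h at 2 h, in 53 ORFs, with medians of 1.43 and 0.09 and then of -0.24 and -0.56 at 3 h and 4 h. In 28 the value was low in both libraries, with medians of -1.88 and -3.12. Of these 24 were in a list, against 280 of 483 among all ORFs low in both. At 3 h the value was still at least 1 unit from that at 1 h, in the same direction, for 158 of 197 higher and 127 of 158 lower ORFs with a 3 h value. This reuses the 1 h value that chose these ORFs, and those that stood apart at 1 h pass by construction. Of all 5679 ORFs with values at 1 h and 3 h, 311 were at least 1 unit higher at 3 h and 351 lower.

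Neighbouring genes were both higher in 11 of 5229 adjacent pairs and both lower in 10. Of all ORFs, 3.55% were higher and 2.81% lower. The number of pairs that these shares alone would give was not worked out, so the pairs named here are examples. HTA2 and HTB2, which share a promoter region between them, form such a pair. HOP1 lies beside PCI8, which was higher by 1.05, from 0.50 to 1.54, and CSM4 beside YPL199C, higher by 1.01; both pairs are convergent. On the lower side PHO5 lies beside PHO3, HIS7 beside ARO4, and DAL3 beside DAL7, each pair in tandem.

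At the edge of the 2-fold limit, SMN1, PAM18 and YLL047W had differences of 1.00, and CQD2, YKL066W and YER084W stood just below it at 0.99. On the lower side FKH1, VPH1 and SKP2 lay just inside, and YAP5, YBL109W and KAR5 just outside at -0.99. Of the 486 ORFs with no match in the gene table, 413 had both values, and 18 were higher and 11 lower. Over all ORFs with both values 3.55% were higher and 2.81% lower.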

How the data were processed

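The libraries are 2-colour arrays of poly(A) RNA, 1 per time point, grouped by the time in their titles. Per the labels' protocols and series design, the authors divided the ratio of Cy5 sample to Cy3 mix by that at 0 h and deposited its log2. For scanner, background correction, spot filter and normalization, details were not given in the sources used here. Spot intensities were not used, so signal above background is unknown.

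The 1 h value was subtracted from the 2 h value per ORF, with no pseudocount, filter or test, and a difference of 1 or more was counted. Of 6141 ORFs, 5655 matched RefSeq (assembly R64), used for names and neighbours. SDs over ORFs were 0.96 at 1 h and 1.03 at 2 h. The 53 gene lists, with symbols respelled to match the gene table, and the members of the step were chosen with earlier results of these data known. Named genes followed a rule: the 15 largest differences each way, up to 4 higher and 4 lower genes per list, the 10 largest each way outside lists, 3 on each side of either limit, and key genes. ARO4, BAT1, GCN4, HIS7, ILV3, LCP5, MCD1, PCI8, PHO12, PHO84, PHO89, RNR2, RNR4, RPL26B, VTC4, YPL199C and ZIP1 fall outside it and were picked once their values had been seen. Counting was checked on simulated differences. Promoter and protein sequences were not analysed here. Alternatives were other scalings, thresholds and sets of ORFs. Python 3.11.15, numpy 2.4.6, pandas 2.3.3 and matplotlib 3.10.9 were used.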

Additional observations from a re-analysis of the deposited data

How the results depend on the processing

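With 1 array per time point, no difference can be set against a replicate. With each library centred on its median, the counts of 201 higher and 159 lower ORFs became 228 and 133. They were 181 and 152 over ORFs with a value in all 7 libraries, and 183 and 148 over ORFs matched to the gene table. Where the difference was kept at 3 h they were 158 and 127, by a rule that reuses the 1 h value. The counts became 397 and 243 with libraries brought to the same spread, which multiplies the 1 h and 2 h values by 1.28 and 1.25 by construction. After quantile normalization they were 347 and 265 of the 5349 ORFs with a value in all 7 libraries, where the unscaled counts were 181 and 152. That scaling gives each library the mean distribution of all 7, and the 1 h and 2 h libraries had the smallest SDs over ORFs. A limit of 0.5 gave 745 and 959, and a limit of 1.5 gave 60 and 36. The other settings were chosen after seeing the data: 124 and 82 without ORFs whose 1 h value stands apart, 121 and 106 without those whose 1 h value lies beyond both 0 h and 2 h, 747 and 712 for 2 h against 0 h, and 311 and 351 for 3 h minus 1 h. Both settings that leave out ORFs by their 1 h value remove only ORFs counted as higher or lower. The cause of these moves was not tested except where the setting itself removes ORFs, changes the limit or changes the scale. No named gene reversed; 10 of their differences moved under centring and 150 did not, 12 moved and 148 did not under equal spread, and 21 moved and 129 did not after quantile normalization. List medians moved by 0.06, 0.32 and 0.56 at most under these scalings and changed sign in 4, 2 and 2 of 53 lists. Ribosomal proteins had a median of -0.24 and 2 lower genes of 126 after quantile normalization (1.59%, against 4.95% of all ORFs), and none of the 52 of the small subunit was lower. No paired analysis was possible because each time point has 1 array and the labels give no replicate numbers.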
